A study of Mus musculus with 2 samples.

Results

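The D cyclins, their kinases and the inhibitors of these kinases were followed from confluence to day 3 of induced fat cell formation (adipogenesis) in Xbp1 knockout mouse embryonic fibroblasts, as the labels name them. The 10 genes were chosen by symbol: Ccnd1, Ccnd2 and Ccnd3, Cdk4 and Cdk6, Cdkn1a and Cdkn1b, and Cdkn2a, Cdkn2b and Cdkn2c. All 10 were on the array, represented by 16 probes, out of 16637 named genes. Xbp1, the target of the knockout in both groups, codes for a factor that switches on genes of protein folding under endoplasmic reticulum stress. Wild-type cells were not analysed here. The day 0 group was 1 culture sample at confluence. The day 3 group was 1 sample at the end of the 72 h induction period with insulin at 10 µg/ml, IBMX (an inhibitor of the enzymes that break down cAMP) at 0.25 mM, and troglitazone (an agonist of PPARγ) and DXM at 5 µM each. The sources used here do not give how many embryos or lines the fibroblasts came from, their passage or whether they were immortalised. The design asks how expression on day 3 stood against that on day 0.

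As background, D cyclins are the regulatory partners of CDK4 and CDK6, and the active kinases phosphorylate the retinoblastoma protein, which then releases E2F factors to switch on genes of DNA synthesis. INK4 proteins (p15, p16, p18) bind CDK4 and CDK6 and keep D cyclins from them. CIP/KIP proteins (p21, p27) bind assembled cyclin and kinase complexes. In cultured preadipocytes, induction at confluence is known to be followed by a limited re-entry into the cell cycle before the cells differentiate.

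Messenger RNA was measured as fluorescence intensity on 1 single-colour array per day, so no value has a replicate and no p-value was computed. Signals below are intensities after quantile normalization between the arrays. Detected genes, 10656 in all, are those with a signal above 122, the median over gene probes, on day 0, day 3 or both. As a technical error, control features printed as 5 or 6 spots gave the SD of a difference between days on the log2 scale. Its median over features was 0.36 to 0.46, and pooled over features it was 0.50 to 1.01, depending on signal. It leaves out variation between cultures and hybridizations. Among detected genes 55.4% of the 2-fold differences were toward day 3. The share was 24.3% under median scaling over all gene probes, 66.4% under median scaling over the probes that passed the threshold on both days, and 92.6% without normalization, where the median of all detected genes lay at -0.49, 0.09 and 0.67. Directions are therefore also given relative to that median. All 11 fibroblast markers were detected. Of 16 macrophage, endothelial and epithelial markers 6 were: Cd14, Cd68 (198.5 on day 0 and 268 on day 3), Csf1r (269.5 and 51.5), Pecam1 (189.5 and 568.5), Kdr (168 and 17.5) and Krt18 (148 and 114.5). Ptprc and Epcam were at the floor on both days. The rest lay under the threshold, which does not make them absent: Cdh1 read 117.5 on day 0 and 67.5 on day 3. The macrophage markers summed to 16574.5 on day 0 and 40043.5 on day 3, nearly all of it Cd14, and the part of such cells in the results was not tested. Of 8 adipocyte markers 3 were detected: Lpl (8480 and 59293, at least 6.99-fold higher, since it was saturated on day 3), Pparg (-0.71) and Cebpa (-0.06). Of the 5 under the threshold on both days, Adipoq, Fabp4, Cidec and Plin1 read higher on day 3, and Cfd read lower. No fold is given for these dim signals. The adipocyte list summed to 9367 on day 0 and 60148.5 on day 3, nearly all of it Lpl. The part of these markers in the results was not tested. In bulk RNA, fewer cells with a transcript and less of it per cell cannot be told apart. The signal of Xbp1 was 20936 on day 0 and 13561 on day 3. The sources used here do not place its probe relative to the deletion, so it does not check the label.

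The 3 D cyclins did not move as a group: on day 3 Ccnd1 and Ccnd2 were several-fold lower and Ccnd3 was higher. Of the 10 genes, 3 were at least 2-fold lower on day 3 (30% of them, against 10.3% of all detected genes) and 1 was at least 2-fold higher (10%, against 12.8%). The 3 lower genes were Ccnd1, Ccnd2 and Cdk6, and the higher one was Ccnd3. The inhibitors differed by less: 4 of the 5 by 1.06-fold to 1.44-fold, while Cdkn1b was too dim for more than a bound of 1.04-fold. The median difference of the 10 genes was -0.28 on the log2 scale, against 0.03 for all detected genes.

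**Figure D1:**
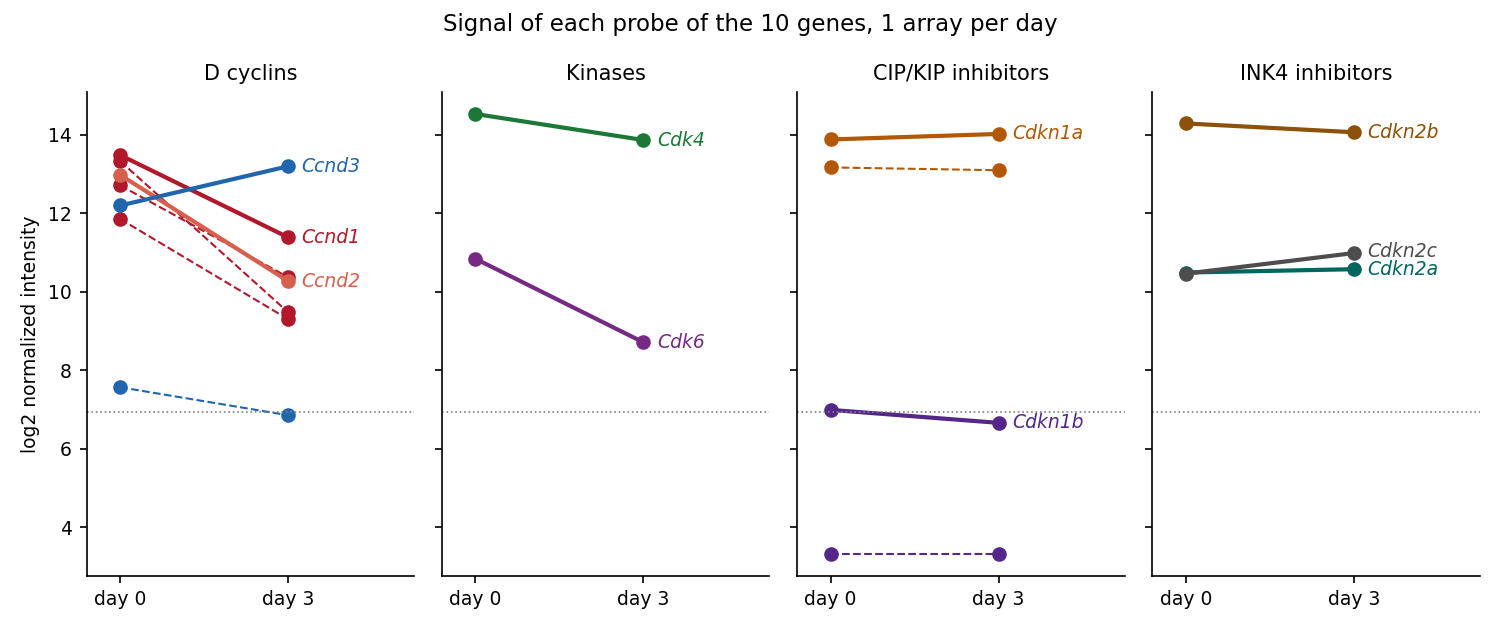
Log2 normalized intensity of all 16 probes on day 0 and day 3, in panels by role, with 1 array per day and no error bars. Solid lines are the probes that stand for their genes, dashed lines are other probes, and the dotted line is the detection threshold of 6.93. Heights of different probes are not comparable. The 4 Ccnd1 probes, Ccnd2 and Cdk6 slope down, the bright Ccnd3 probe slopes up, and the lines of the inhibitors are nearly flat.

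Ccnd2, which encodes cyclin D2, had the largest difference of the 10. Its only probe (mMC008669) read 8075.5 on day 0 and 1236 on day 3, or 6930 and 1460 before normalization. That is 6.53-fold lower on day 3 (log2 difference -2.71, repeat-spot SD 0.41, pooled 0.50). The day 3 signal stayed well above the threshold, and only 47 of the 10656 detected genes had a more negative difference. It was lower in all 15 other settings, from -3.34 to -2.25. Some of these repeat the main value by construction, such as those that change only which genes count as detected. The 15 are thus not independent checks, here or for the genes below.

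Ccnd1, which encodes cyclin D1, the D cyclin best known for its induction by growth factors, was read by 4 probes, and all 4 were lower on day 3. The brightest (mMR030527), which stands for the gene, read 11464.5 on day 0 and 2677 on day 3, 4.28-fold lower (-2.10, repeat-spot SD 0.36, pooled 0.90). Probe mMR027630 read 6712 and 1324, a log2 difference of -2.34. Probe mMC006228 read 3706.5 and 630 (-2.56). The differences of these 3 probes were close in size.

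The fourth Ccnd1 probe, mMC024692, stood apart in size. It read 10307.5 on day 0 and 711.5 on day 3, 14.5-fold lower (-3.86). The range over the 4 probes was 1.76 on the log2 scale. The pooled repeat-spot SD was 0.50 for mMC024692 and 0.90 for the brightest probe. Whether the spread among the probes exceeds this error was not tested. Where each probe lies in the transcript was not analysed here. Ccnd1 was lower in all 15 other settings, from -2.74 to -1.65, and 170 detected genes had a more negative difference. The direction is thus shared by every probe and setting tried, while the size as read differed between probes.

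Ccnd3, which encodes cyclin D3, went the other way. Its bright probe (mMR031236) read 4709 on day 0 and 9423 on day 3, 2.001-fold higher (1.00, repeat-spot SD 0.36, pooled 0.90). It sat on the 2-fold line itself, and 1353 detected genes had a larger positive difference. The second probe (mMR027188) was dim and crossed the threshold on day 0 only. It read 189.5 on day 0 and 115.5 on day 3, at least 1.55-fold lower, and -0.71 as read. The 2 probes of Ccnd3 thus disagreed in direction after quantile normalization. Before it both were higher on day 3, the dim one at 130 and 157 and the bright one at 4046 and 10725. With the mean of both the difference was 0.14. It stayed above 0 in all 15 other settings, up to 1.41 without normalization, and between 0.74 and 1.02 in the 5 settings taken relative to all genes.

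A constant per array drops out of the contrast among the D cyclins, so scaling by such a constant cannot change it. Quantile normalization and cyclic loess are not constants per array, and the contrast kept its direction under both. The log2 difference of Ccnd3 exceeded that of Ccnd1 by 3.10 (repeat-spot SD 0.51, pooled 1.28), and by 2.86 to 3.10 over all 16 settings. It exceeded that of Ccnd2 by 3.71 (SD 0.54, pooled 1.03), and by 2.85 to 3.72 over the settings. Both gaps rest on the bright Ccnd3 probe, and the lowest value of each range came with the mean of all probes. Several settings cannot change a gap, among them removal of the shift of all genes and changes of the detection rule. The settings are therefore not independent checks. Ccnd1 and Ccnd2 were not clearly separated: their differences lay 0.61 apart, above the SD of 0.54 but within the pooled SD of 1.03. The gap between them ran from -0.01 to 0.64 over the settings.

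The kinases also differed in size. Cdk6 (mMC008913) read 1836.5 on day 0 and 419 on day 3, 4.38-fold lower (-2.13, repeat-spot SD 0.40, pooled 1.01). It was lower in all 15 other settings, from -2.64 to -1.55, with 161 detected genes more negative. Cdk4 (mMC015649), which encodes the other D cyclin partner, read 23733.5 and 14976, 1.58-fold lower (-0.66, SD 0.36). That lies within the pooled SD of 0.90, although the direction was the same in all 15 settings, from -1.34 to -0.25. The difference of Cdk4 exceeded that of Cdk6 by 1.47 (SD 0.54, pooled 1.35), and by 1.30 to 1.55 over the settings. The kinase genes were thus both lower as read, and the gap between them was only slightly above the pooled SD.

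**Figure D2:**
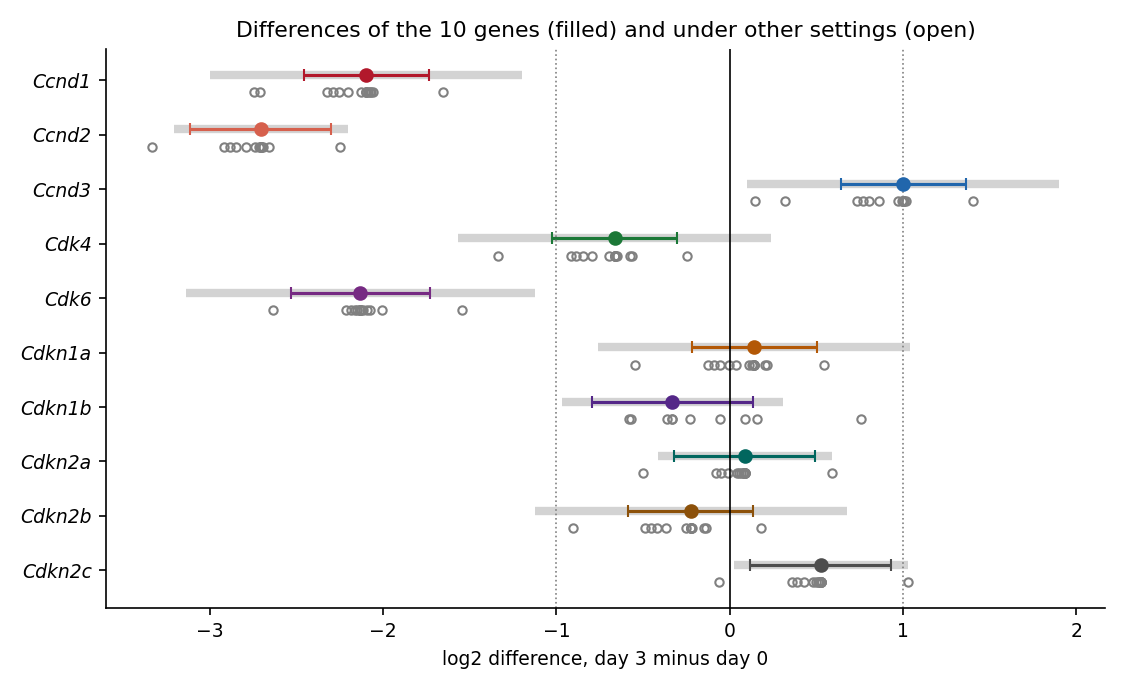
Log2 difference, day 3 minus day 0, of each of the 10 genes (filled circles, from 1 array per day). Thin bars are ± the median repeat-spot SD, pale bars ± the pooled one, and open circles the other settings in which the gene was detected. Cdkn1b was not detected in some settings and has fewer circles than the other genes. Dotted lines mark 2-fold. Ccnd1, Ccnd2 and Cdk6 lie below -1 in every setting, Ccnd3 lies at 1.00 with settings from 0.14 to 1.41, and the inhibitors lie around 0.

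The sequences before the start sites are shown for the pair of non-inhibitor genes at 2-fold that the RefSeq table matched, since Ccnd3 and Cdk6 differed in opposite directions. The table (build GRCm38.p6) matched 8 of the 10 genes, with 12 start sites, and did not match Ccnd1 and Ccnd2. Each window is the 250 bases before a start site, on the gene's strand. Capitals mark any of these motifs on either strand: TGACGTCA and its part TGACG, bound by cAMP-responsive factors; TTTCGCGC, TTTGGCGC and TTTCCCGC, forms of the E2F site; GGGCGG, the GC box; and CCAAT. The first motif contains the second, so their counts overlap.
Ccnd3 start 1, chr17:47504801-47505050, plus strand: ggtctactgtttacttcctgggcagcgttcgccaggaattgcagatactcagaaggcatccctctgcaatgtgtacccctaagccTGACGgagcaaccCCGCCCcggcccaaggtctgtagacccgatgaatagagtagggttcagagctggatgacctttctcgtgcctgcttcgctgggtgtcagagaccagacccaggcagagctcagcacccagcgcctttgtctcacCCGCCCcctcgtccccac
Ccnd3 start 2, chr17:47593217-47593466, plus strand: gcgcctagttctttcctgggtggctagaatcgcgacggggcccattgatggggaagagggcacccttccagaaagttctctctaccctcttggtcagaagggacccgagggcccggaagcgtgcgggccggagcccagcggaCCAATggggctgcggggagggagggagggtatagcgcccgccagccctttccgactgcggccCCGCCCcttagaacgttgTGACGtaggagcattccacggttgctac
Cdk6, chr5:3343643-3343892, plus strand: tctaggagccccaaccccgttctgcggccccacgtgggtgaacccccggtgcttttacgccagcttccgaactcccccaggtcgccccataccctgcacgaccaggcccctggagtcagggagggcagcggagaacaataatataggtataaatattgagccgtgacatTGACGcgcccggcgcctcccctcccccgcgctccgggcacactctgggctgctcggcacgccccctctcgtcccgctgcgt

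Both Ccnd3 windows and the Cdk6 window held 1 TGACG, which 17.8% of the 32851 windows in the table hold. In Cdk6 it began 81 bases before the start, in Ccnd3 165 and 28 bases before. The first Ccnd3 window held 2 GC boxes, the second held 1 and the Cdk6 window held 0, and 32.7% of all windows hold at least 1. CCAAT was in the second Ccnd3 window, 108 bases before the start, and 33.8% of all windows hold it. No E2F form was in these 3 windows. These are matches of letters, not binding sites.

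Of the CIP/KIP inhibitors, Cdkn1a showed no difference beyond its repeat-spot SD, and Cdkn1b was too dim to tell. Cdkn1a, which encodes p21, an inhibitor that p53 switches on, read 15125.5 on day 0 and 16676 on day 3 by its brighter probe (mMR028209; 0.14, repeat-spot SD 0.36). The other probe (mMC021344) read 9229 and 8779 (-0.07). The probes agree within 0.21, and 56.1% of detected genes had a lower difference than the brighter one. Cdkn1a changed sign with the scaling, from -0.54 under median scaling over all gene probes to 0.54 without normalization. It lay between -0.12 and 0.22 relative to all genes.

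Cdkn1b, which encodes p27, the inhibitor that accumulates in resting cells, could not be measured well. Its brighter probe (mMC026334) read 127 on day 0 and 101 on day 3, so only day 0 exceeded the threshold of 122, and barely. Its difference was -0.33 as read (repeat-spot SD 0.46), and 1.04-fold is the bound that the threshold leaves. The sign was the same in 9 of 14 other settings; it was 0.76 without normalization (81 and 137) and ran from -0.57 to 0.16 relative to all genes. The other probe (mMR029688) was under the floor of 10 on both days. A dim probe does not show that the gene was silent.

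The INK4 inhibitors stayed close to their day 0 signals. Cdkn2a, which encodes p16 and, from a separate first exon, the p53 activator ARF, read 1439 on day 0 and 1527 on day 3 (mMC011776; 0.09, repeat-spot SD 0.41). Which of the transcripts this probe reads was not analysed here. Cdkn2b, which encodes p15, a target of TGF-β signalling, read 20082.5 and 17188 (mMC010320; -0.22, SD 0.36). Cdkn2c, which encodes p18, read 1410.5 and 2030.5, 1.44-fold higher (mMC018119; 0.53, SD 0.41). Cdkn2c had the largest difference of the 5 inhibitors and is the only one whose difference exceeded its pooled repeat-spot SD, 0.50, though only slightly.

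The directions of the INK4 genes depended on the scaling. Relative to all genes, Cdkn2c lay between 0.36 and 0.53 and Cdkn2b between -0.49 and -0.14, each with 1 sign, while Cdkn2a ran from -0.08 to 0.08. As normalized, Cdkn2c was -0.06 under median scaling over all gene probes and 1.03 without normalization. Cdkn2b was 0.18 without normalization and Cdkn2a -0.50 under median scaling over all gene probes. None of the 3 reached 2-fold in the authors' deposited table either, where the log2 ratios of its values were 0.08 for Cdkn2a, -0.22 for Cdkn2b and 0.53 for Cdkn2c.

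**Figure D3:**
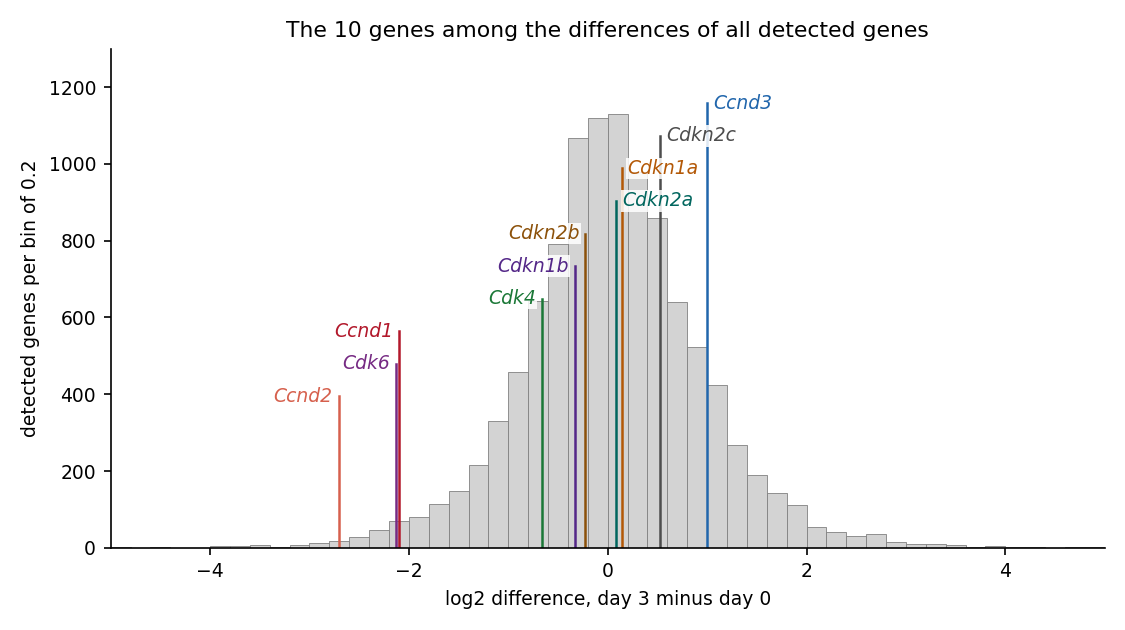
Histogram of the log2 difference, day 3 minus day 0, over the 10656 detected genes in bins of 0.2, with values beyond the axis counted in the end bins. Coloured lines mark the 10 genes, and their heights carry no value. Ccnd2, Cdk6 and Ccnd1 stand in the lower tail, with 47, 161 and 170 genes below them, and the inhibitors stand in the bulk.

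Of the inhibitors, 2 genes had a window with a full-length motif, shown here because IBMX acts through cAMP and E2F acts next in the pathway. They are the only windows of the 12 with any 8-letter motif.
Cdkn2b, chr4:89311033-89311282, minus strand: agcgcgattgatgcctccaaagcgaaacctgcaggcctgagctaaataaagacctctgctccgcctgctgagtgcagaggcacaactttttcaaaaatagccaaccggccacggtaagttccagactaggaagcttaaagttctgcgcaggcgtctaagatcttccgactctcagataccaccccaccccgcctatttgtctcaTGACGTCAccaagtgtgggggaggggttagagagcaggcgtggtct
Cdkn2a start 1, chr4:89294620-89294869, minus strand: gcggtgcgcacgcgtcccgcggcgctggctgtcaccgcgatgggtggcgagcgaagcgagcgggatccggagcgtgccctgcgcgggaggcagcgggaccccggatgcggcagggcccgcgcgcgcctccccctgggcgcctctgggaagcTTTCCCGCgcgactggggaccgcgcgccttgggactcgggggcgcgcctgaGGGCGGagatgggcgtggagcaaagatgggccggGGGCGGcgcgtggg

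The Cdkn2b window held TGACGTCA beginning 46 bases before the start, which 1.55% of all windows hold, and the Cdkn2b signal differed by -0.22. Here too a match of letters is not a binding site, and whether it acts on Cdkn2b was not tested. The window of the first Cdkn2a start held the E2F form TTTCCCGC beginning 99 bases before the start, which 0.89% of all windows hold, and GGGCGG at 2 places. The window of the second Cdkn2a start held none of the motifs. Which start serves p16 and which ARF was not analysed here. Any of the 3 E2F forms was in 1.53% of windows. The Cdkn2c window of its first start held 3 GC boxes. Of the others, the Cdk4 window held 1 TGACG and 1 GC box, and the Cdkn1b window held 1 GC box and 2 CCAAT.

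Around these 10 genes, other genes of the G1 to S step went both ways. Of 32 listed, 30 were on the array and 27 passed the threshold; 5 were at least 2-fold lower on day 3 (18.5%, against 10.3% of all detected genes), 2 were higher (7.41%, against 12.8%), and the median was -0.26. The lower ones were the E cyclin genes Ccne2 (890.5 and 185, -2.27, and -2.09 by its other probe) and Ccne1 (1440 and 715, -1.01), whose products act with CDK2 after the D cyclins. The S-phase cyclin gene Ccna2 (3980.5 and 1494.5, -1.41) and Cables1 (683 and 300.5, -1.18) were also lower. Myc, a transcription factor gene that drives growth, read 5109.5 and 1264.5 (-2.01), but -0.63 by its other probe.

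The 2 higher genes both encode pocket proteins, the substrates of the D cyclin kinases. Rb1, the retinoblastoma gene, read 489.5 on day 0 and 1158.5 on day 3 (1.24, repeat-spot SD 0.40, pooled 1.01). Rbl2, which encodes p130, the pocket protein typical of resting cells, read 1832 and 3887 (1.09, SD 0.41, pooled 0.50). The remaining family member, Rbl1, which encodes p107, read 403 and 398.5 (-0.02). Rb1 and Rbl2 lay above 0 in every setting, down to 0.78 and 0.45. Cdk2 (-0.30) and the CIP/KIP inhibitor gene Cdkn1c (-0.26) lay within their repeat-spot SD. Rbl1, Cdk2 and Cdkn1c are named outside the rule, after seeing their values.

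Genes that E2F factors switch on were mostly lower. Of 22 listed, 21 were on the array and 18 were detected, and 11 were at least 2-fold lower on day 3 (61.1%, against 10.3% of all detected genes). Their median was -1.23. Subunits of the replicative helicase were among them, Mcm3 (-2.29), Mcm6 (-1.89) and Mcm5 (-1.75), as were the nucleotide synthesis genes Rrm2 (-2.06) and Tk1 (-1.76). The other probe of Tk1 gave 0.08. The sliding clamp gene Pcna read 32833 and 13189.5 (-1.32), Uhrf1 differed by -1.42 (-3.31 by its other probe) and Cdc6, which loads the helicase, by -1.30 (-4.67 and -4.07 by its other probes). The 1 higher gene (5.56%, against 12.8% of all detected genes) was Tyms (1.01, and 0.44 by its other probe). It sat close to the 2-fold line and was named after its values were seen.

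**Figure D4:**
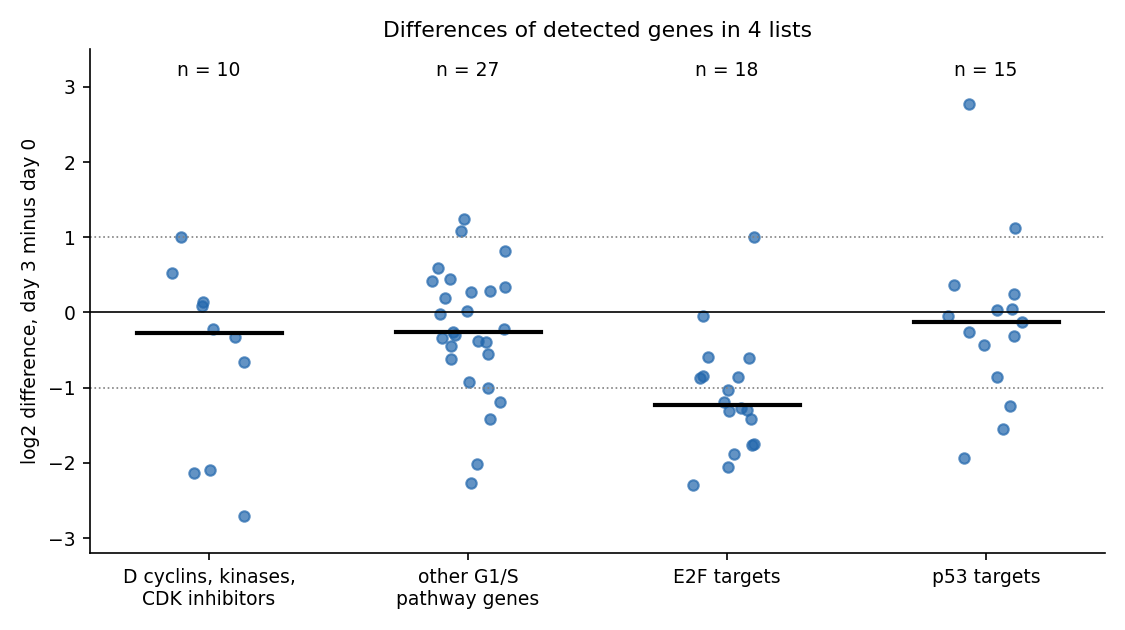
Log2 difference, day 3 minus day 0, of the detected genes of 4 lists, 1 point per gene, spread sideways only to separate points. Black bars are medians and dotted lines 2-fold. The E2F targets centre on -1.23, against -0.28 for the 10 genes, -0.26 for the other G1 to S genes and -0.12 for the p53 targets.

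Genes that p53 switches on, as it does Cdkn1a, had no common direction. Of 18 listed, 17 were on the array and 15 passed the threshold; 2-fold higher signals on day 3 were seen for 2 (13.3%, against 12.8% of all detected genes) and 2-fold lower ones for 3 (20%, against 10.3%), and the median was -0.12. Trp53inp1 read 1030.5 and 7060, 6.85-fold higher, and Btg2, an antiproliferative gene, read 1527 and 3341 (1.13). The kinase gene Plk2 read 4162 and 1089 (-1.93). The death receptor gene Tnfrsf10b read 296.5 and 125.5, the latter just above the threshold (-1.24, and -0.72 and -1.12 by its other detected probes). Perp was below the threshold on day 3 and was at least 2.40-fold lower. The lists share no gene with the 10, and a count over a list here is a description without a test.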

How the data were processed

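Phalanx, the array company, amplified and labelled 1 µg of column-purified total RNA per sample, per the labels' protocols. Groups follow the labelled stage. In the deposited tables of single samples there is 1 linear intensity for each of 39200 spots. The 7402 empty spots had a median of 0 on both days, so background appeared to be subtracted already. The sources used here name no scanner, image software or background method. Of 29922 gene probes, 11482 have an intensity in the authors' table for the series; its filter is not stated, and it served as an alternative.

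Gene probes were quantile normalized in R 4.3.3 (limma 3.58.1), floored at 10 and put on the log2 scale; the rest was computed in Python 3.11.15. The normalization was tested on simulated data in which few probes changed, as many up as down. That test could not show how a shift of most genes toward either day would be handled. Names came from the platform annotation for 21020 probes (8902 unnamed), updated through the GRCm38.p6 gene table: 17558 symbols were current, 3410 were synonyms and 52 were kept. For genes with several probes, the brightest by mean log2 signal was used. Where a signal lay under the threshold of 122 on 1 day, a fold is a bound. Signals of 65000 or more count as saturated, and 0 probes of the 10 genes were. Repeat-spot SDs leave out saturated features; the bin of log2 signals from 8 to 10 rests on 7 features, the others on 23 to 64.

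Each group was 1 sample, so nothing was tested, and the small number of arrays limits the precision. The genes and lists were chosen with earlier results of these data known. Named were the 10 genes with every probe, and, of each list, up to 8 detected genes at 2-fold, by size. With 2 arrays a pattern is 1 difference, so no genes were named for a like pattern. In all, 11 alternatives were planned and 4 were added after seeing the data: each scaling with the median of all detected genes removed.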

Additional observations from a re-analysis of the deposited data

How the results depend on the processing

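No paired analysis was possible because each group is 1 sample; leaving out a replicate was not possible either. Of 15 alternatives, 4 of them added after seeing the data, 14 left the count of lower genes among the 10 at 3; under median scaling over all gene probes it was 4, with Cdk4 at -1.34. Of all detected genes 24.3% were at least 2-fold lower in that setting, against 10.3% in the main one. The count of higher genes, 1, turned on Ccnd3 at the 2-fold line. It was 0 under both median scalings, with the offset of 50, with the mean of all probes, with the shift of all genes removed, and with the shift removed under both median scalings and without normalization, and it was 2 without normalization. There 35.7% of all detected genes were at least 2-fold higher. No difference of a gene at 2-fold changed sign. For a gene above the threshold on both days, changing the detection rule or setting low signals to the threshold repeats the main value by construction.

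Among the other G1 to S genes, higher genes numbered 0 under median scaling over all gene probes, 8 without normalization, and 1 under the scaling over probes above threshold on both days and, with the shift removed, under both median scalings and without normalization. Lower genes numbered 9 under median scaling over all gene probes and 2 without normalization, and the median was -0.87 and 0.22 there. The shares of all detected genes moved with the scaling too. Under median scaling over all gene probes 7.78% were higher and 24.3% lower, and without normalization 35.7% and 2.85%. In the other settings 9.74% to 17.5% were higher and 8.34% to 11.9% lower. Counts of each list stand against these shares. For E2F targets 0 were higher under cyclic loess with or without the shift, median scaling over all gene probes, the authors' table, the offset, the mean of probes and the removed shift. Without normalization 5 were lower and the median was -0.53. For p53 targets 1 was higher under median scaling over all gene probes and, with the shift removed, under both median scalings and without normalization. Lower ones numbered 1 without normalization and in the authors' table, and the median was -0.73 under median scaling over all gene probes and 0.36 without normalization. Settings that differ by a constant per array move every gene by that constant. The detection threshold, the median over gene probes, limits the brighter Cdkn1b probe and the second Ccnd3 probe. Before normalization both read above the 95th percentile of empty spots on both days.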
